A study of Mus musculus with 24 samples.

Results

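The mammalian core clock genes were followed as 8 transcripts: the activators Arntl (which encodes BMAL1), Clock and Npas2, the periods Per1, Per2 and Per3, and the cryptochromes Cry1 and Cry2. They were chosen by symbol, as 8 of the 55487 genes of the count table, by a rule that uses no measured value. A count was recorded for 7 of the 8. In the clock, BMAL1 pairs with CLOCK or its relative NPAS2, binds E-box elements and drives transcription of the period and cryptochrome genes. Their protein products then enter the nucleus and repress that pair, which closes a feedback loop of about a day. Hepatocytes carry this loop, and in liver it times the expression of many metabolic genes.

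The data were 24 BRB-seq libraries, a bulk RNA method that barcodes samples early and reads the 3′ end of the mRNA, from AML-12 cells, an immortalized mouse hepatocyte line. There were 6 groups of 4 libraries. BSA cells received the albumin carrier alone, and the cells of the other 5 groups received 0.25 mM palmitate, a saturated fatty acid used to model steatosis, for 48 hours. PAL cells were not transfected, whereas the 4 remaining groups also carried an esiRNA (a pool of short interfering RNAs cut from a long one by an endoribonuclease) for the final 24 hours. This was 200 nM of a negative control esiRNA in CON, 100 nM of Bmal1 esiRNA in BMAL1, 100 nM of Chrebp esiRNA in CHREBP, and 100 nM of each, 200 nM in all, in BOTH. The total esiRNA dose therefore differed between CON and the single-silencing groups, and between BOTH and those groups. No group was transfected with control esiRNA in the absence of palmitate. All groups were kept in medium without dexamethasone and with charcoal/dextran-treated serum, and each was sampled at 1 time, so no value below can be placed on a rhythm. The labels do not say whether the 4 libraries of a group came from separate cultures, and p-values measure the spread between these libraries only.

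Library names give plate positions. BSA and PAL shared column 1, CON and BMAL1 column 2, and CHREBP and BOTH column 3. BSA, CON and CHREBP took rows A to D, and PAL, BMAL1 and BOTH rows E to H. Position and treatment cannot be told apart in any comparison below. Libraries held 5399700 to 11237474 counts in genes. The hepatocyte markers Krt8, Krt18, Trf, Ttr, Serpina1a and Hnf4a were present in every library, while Alb was at 11.8 to 35.7 CPM (counts scaled to the library total). The other 5 of the 12 hepatocyte markers were low, with Apob at 1.71 to 5.95 CPM, Apoa1 at 0.285 to 1.88, Apoa2 at 0 to 1.03, and Cps1 and Ahsg below 1 CPM. Of 4 biliary genes Krt7, Krt19 and Sox9 were also counted in every library, and Epcam had 9 counts over all libraries. Markers of other liver cells were low. Of 5 macrophage markers Adgre1 was at 0 in all libraries and Cd68 was counted in every one (0.797 to 2.89 CPM), and the 5 summed to 0.963 to 3.79 CPM. Of 4 stellate markers Lrat was at 0 and Col1a1 was counted in every library (0.12 to 1.27 CPM), with a sum of 0.142 to 3.68 CPM. Of 4 endothelial markers Cdh5 and Kdr were at 0, and the sum was at most 0.623 CPM. One library stood apart. In BOTH replicate 4, 237 of 9380 genes (those averaging at least 50 normalized counts) were below 1/2 of the lowest of the other 3 libraries of the group, against 0 to 47 genes in each of the other 23 libraries.

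All 8 genes are protein coding. On GRCm38, the build that the files call mm10, Arntl lies at chr7:113207465-113314126 and Per1 at chr11:69095217-69109960, both on the plus strand. Per3 at chr4:151003652-151044665, Cry1 at chr10:85131700-85185064, Clock at chr5:76209868-76304792, Per2 at chr1:91415982-91459324 and Cry2 at chr2:92403646-92434043 are on the minus strand, and Npas2 at chr1:39193731-39363236 is on the plus strand. Exons of Per3 overlap Camta1 on the same strand, and Camta1 had 43 to 166 counts per library, so the division of reads between them is uncertain. The antisense genes annotated over exons of Arntl (Gm45355) and Cry2 (D930015M05Rik) were at 0 in all libraries.

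The promoters of Per1, Cry1, Per3 and Arntl are shown because these were the members that differed over the 6 groups. The sequences are from RefSeq on GRCm38.p6 and run from 250 bases before to 50 bases after an annotated start. Capitals mark an E-box (CACGTG, read the same on both strands), an E′-box (CACGTT, or AACGTG on the other strand), a D-box (TTATGTAA or TTACGTAA) or a core of the REV-ERB and ROR element (TAGGTCA or TGGGTCA), each searched on both strands. No marked motifs overlap. For Per1, at chr11:69098699-69098998 on the plus strand, and for Cry1, at chr10:85185005-85185304 on the minus strand, the windows read:
Per1: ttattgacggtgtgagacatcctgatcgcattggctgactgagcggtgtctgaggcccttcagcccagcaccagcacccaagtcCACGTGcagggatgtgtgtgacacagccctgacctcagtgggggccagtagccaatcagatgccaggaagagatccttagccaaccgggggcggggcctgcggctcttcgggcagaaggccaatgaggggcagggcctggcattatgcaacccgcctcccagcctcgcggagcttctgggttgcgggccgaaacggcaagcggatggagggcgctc
Cry1: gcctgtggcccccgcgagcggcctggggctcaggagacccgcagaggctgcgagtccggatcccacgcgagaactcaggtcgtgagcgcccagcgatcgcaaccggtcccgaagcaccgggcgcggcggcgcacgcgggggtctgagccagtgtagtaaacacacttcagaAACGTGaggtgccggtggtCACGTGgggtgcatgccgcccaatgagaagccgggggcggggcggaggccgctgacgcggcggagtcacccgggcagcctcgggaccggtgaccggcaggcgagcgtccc
The windows of Per3, at chr4:151044616-151044915 on the minus strand, and of the second annotated start of Arntl, at chr7:113207261-113207560 on the plus strand, read:
Per3: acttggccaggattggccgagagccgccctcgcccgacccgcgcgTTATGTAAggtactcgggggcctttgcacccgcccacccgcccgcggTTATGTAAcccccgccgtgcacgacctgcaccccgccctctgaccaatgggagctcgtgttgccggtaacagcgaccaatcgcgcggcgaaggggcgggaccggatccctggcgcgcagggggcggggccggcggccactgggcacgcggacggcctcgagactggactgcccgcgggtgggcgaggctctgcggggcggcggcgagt
Arntl: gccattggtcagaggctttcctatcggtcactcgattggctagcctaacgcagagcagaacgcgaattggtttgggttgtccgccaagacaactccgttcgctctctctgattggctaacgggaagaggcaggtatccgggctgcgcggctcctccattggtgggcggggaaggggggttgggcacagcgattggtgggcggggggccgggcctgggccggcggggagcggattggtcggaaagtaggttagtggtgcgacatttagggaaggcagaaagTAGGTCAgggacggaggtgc
The Per1 window held 1 E-box, at -166 to -161 from the start, and the Cry1 window held 1 E-box at -60 to -55 and 1 E′-box at -79 to -74. Of 32851 mouse promoter windows of this length, 7.15% held the E-box and 4.68% the E′-box. The Per3 window held TTATGTAA at -205 to -198 and again at -158 to -151, a motif found in 0.938% of windows. The Arntl window held TAGGTCA at 31 to 37, found in 2.61% of windows. These are letter matches and not measured binding sites. No window for Per2 was used, and the other windows of the family (the first annotated start of Arntl, a second start of Per1, 3 of Clock, and 1 each of Npas2 and Cry2) held no match except an E′-box in Cry2 at -166 to -161.

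Among the activators, Npas2 had no count in any library. Over the 186826483 gene counts of the 24 libraries, a floor of 3 counts allows up to 0.0161 CPM (counting error only). Its relative Clock was detected throughout, as was Arntl, the gene that Bmal1 esiRNA targets and whose product partners both.

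Arntl was lower in the groups that received Bmal1 esiRNA. Its normalized counts (raw counts divided by a size factor per library) in CON replicates 1 to 4 were 57.5, 49.2, 41.9 and 30.1. In BMAL1 they were 23.1, 22.3, 25.9 and 32.9, and in BOTH 16.6, 30.9, 25.4 and 18.2. Each silenced group overlapped CON only through CON replicate 4, which lay below 1 library of each. The raw counts behind these values were low, at 15 to 85 over all 24 libraries. Group means were 44.7 ± 11.6 in CON, 26.0 ± 4.82 in BMAL1 and 22.8 ± 6.64 in BOTH (SD, n = 4). In CHREBP the 4 libraries had 33.2, 43.9, 28.9 and 35.4, a mean of 35.4 ± 6.29 between those of CON and BMAL1. In a fit across all genes (DESeq2, Wald test, called at a Benjamini-Hochberg Padj under 0.1), Arntl fell by 0.98 on the log2 scale in BOTH against CON (SE 0.28, Padj = 0.00994). This call was kept when any 1 of the 8 libraries was left out, with Padj from 0.00319 to 0.0725.

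The single silencing gave a similar size without a call. Arntl differed between BMAL1 and CON by -0.78 on the log2 scale (SE 0.28, DESeq2 unadjusted p = 0.00496), but DESeq2 gave it no Padj, because its mean count fell below the level that the independent filtering kept. Without that filtering the Padj was 0.404. Tested alone on log2(normalized count + 1), Arntl differed by -0.74 between BMAL1 and CON (2-sided exact permutation p = 0.0571, n = 4 per group) and by -0.95 between BOTH and CON (exact permutation p = 0.0571). The smallest p that 4 against 4 can give is 0.0286. As in any bulk sample, fewer cells with a transcript and less transcript per cell cannot be told apart. BOTH against CHREBP, the other comparison that adds Bmal1 esiRNA, gave -0.64 in the same test (exact permutation p = 0.0571, n = 4 per group, and 0.0571 for each after adjustment over the 3 tests) and -0.63 in the fit (SE 0.29, unadjusted DESeq2 p = 0.0298, no Padj).

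Clock, whose product pairs with BMAL1, was called lower in neither group with Bmal1 esiRNA. Its normalized counts in BOTH were 222, 198, 149 and 37.4, and the last value was the lowest of the 24 libraries, in the library that stood apart. Outside that library, Clock ranged from 106 to 222. Against CON, Clock differed by -0.16 in BMAL1 (95% interval -0.91 to 0.59 on the log2 scale) and by -0.09 in BOTH (-0.84 to 0.67). Without BOTH replicate 4 the second difference was 0.24 (Padj = 0.484), and without CON replicate 3 it was 0.000167, so it had no stable direction. Whether Clock and Arntl differed in their response was not tested. Clock was called in no comparison of 2 groups, and its intervals were the widest of the 7 genes in both of these comparisons with CON. The fit estimates a shared spread per gene from 16 libraries, BOTH replicate 4 among them. Within groups Clock was at 144 ± 15.9 in BMAL1, 161 ± 22.8 in CON and 152 ± 82.0 in BOTH (SD, n = 4). Its SE was 0.38 in BMAL1 against CON, but 0.15 in PAL against BSA and 0.14 in CON against PAL, fits without BOTH.

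**Figure D1:**
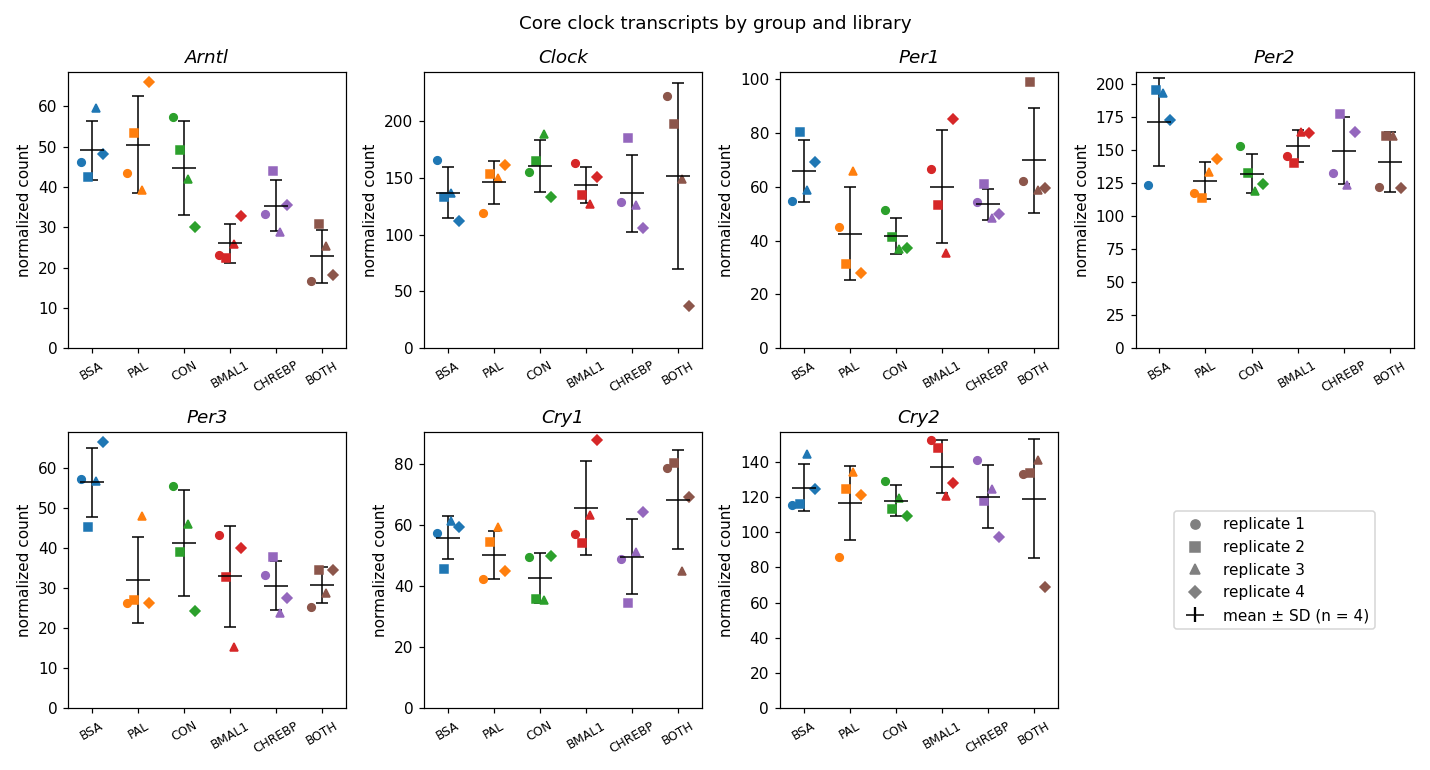
Normalized counts of the 7 detected core clock genes (vertical axes, from 0) in the 6 groups (horizontal axes), with 1 marker per library and bars for the mean ± SD (n = 4). Arntl is lowest in BMAL1 and BOTH, Per3 is highest in BSA, and Clock and Cry2 have their lowest value in BOTH replicate 4.

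The comparison of PAL with BSA asked what palmitate alone did. Of the 7 detected core clock genes 2 were called, both periods and both lower, and 14.3% of the 12827 genes tested were called in this comparison. Per3, a period gene with marked daily cycling in peripheral tissues, had 57.4, 45.5, 56.8 and 66.5 normalized counts in BSA. In PAL it had 26.4, 27.2, 48.1 and 26.4. Replicate 3 of PAL lay above the lowest BSA library, and the other 3 PAL libraries lay below every BSA library. Per3 fell by 0.81 on the log2 scale (SE 0.27, Padj = 0.0247), to 0.569 times its BSA level. The division of reads with Camta1, which overlaps its exons, is uncertain here too.

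Per2, whose product is a main repressor of the CLOCK and BMAL1 pair, had 123, 195, 193 and 173 normalized counts in BSA and 117, 114, 133 and 143 in PAL. BSA replicate 1 lay within the PAL range. Per2 fell by 0.42 on the log2 scale (SE 0.16, Padj = 0.0749). Per1, the period gene that responds fastest to outside signals, had 54.8, 80.3, 58.6 and 69.3 in BSA and 44.9, 31.2, 66.0 and 28.0 in PAL. Its difference of -0.64 (SE 0.26) missed the threshold, with Padj = 0.104. Neither activator nor either cryptochrome was called. Arntl differed by 0.06 (95% interval -0.42 to 0.54), Clock by 0.10 (-0.21 to 0.40), Cry1 by -0.15 (-0.59 to 0.30) and Cry2 by -0.09 (-0.41 to 0.23). The median difference was -0.15 over the 7 genes and 0.00480 over all genes. In the same comparison 6 of the 9 measured hepatocyte markers were called, 2 higher (Krt8, Krt18) and 4 lower (Alb, Trf, Ttr, Serpina1a), and the median difference of the 9 was -0.30 on the log2 scale. The summed level of the 12 markers, most of it from Krt8 and Krt18, ran the other way, at 6441 to 6838 CPM in BSA and 7472 to 8112 CPM in PAL. Of 3 measured biliary markers Krt19 was higher, with a sum of 4 markers of 532 to 600.3 CPM in BSA and 623 to 721 CPM in PAL, and of 2 measured stellate markers Des was lower. Their part in the differences of the periods was not tested.

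Both calls depended on single libraries. Per3 was not called without BSA replicate 4 (log2 difference -0.74, Padj = 0.1004) or PAL replicate 4 (-0.72, Padj = 0.117). Per2 was called without BSA replicate 1 or PAL replicate 4 only, and lost in the 6 other leave-one-out fits, with Padj from 0.121 to 0.279. In contrast, Per1 was called without PAL replicate 3 (-0.94, Padj = 0.0112). The sign was negative for all 3 periods in each of these fits. With replicate number added to the model, the DESeq2 call of Per2 was also lost (Padj = 0.180), and Per3 had Padj = 0.0949.

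CON and BSA shared plate rows but differed in palmitate, transfection and column. In 1 fit of all 24 libraries, in which 11.7% of 14511 genes were called between CON and BSA, Per1 was lower in CON by 0.65 (log2 difference -0.65, Padj = 0.0826), while Per2 (-0.37, Padj = 0.103) and Per3 (-0.43, Padj = 0.358) were not called. Against BSA, Per3 was lower in the same fit in BMAL1 (-0.79, Padj = 0.0667), CHREBP (-0.88, Padj = 0.0182) and BOTH (-0.86, Padj = 0.0162), comparisons that share the BSA libraries and called 7.16%, 14% and 20% of genes. In the same 3 groups Per1 differed from BSA by -0.13, -0.29 and 0.10 (Padj from 0.562 to 0.890) and Per2 by -0.16, -0.19 and -0.28 (Padj from 0.237 to 0.713). Arntl was lower than in BSA in BMAL1 (-0.90, Padj = 0.0132) and BOTH (-1.10, Padj = 0.000539), and no other core clock gene was called against BSA in these 3 groups.

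The comparison of CON with PAL asked what control transfection did. DESeq2 and edgeR called 0 of the 7 genes, none had an unadjusted DESeq2 p under 0.05, and 2.51% of 12928 genes were called. The largest difference was 0.38 for Per3 (SE 0.30, 95% interval -0.20 to 0.96). In the same comparison 20 of the 22 measured genes of a list of 24 interferon response genes were higher, and the summed level of that list was 80.3 to 85.0 CPM in PAL and 184 to 1290 CPM in CON. Of 10 measured hepatocyte markers 1 was higher and 1 lower, and of 3 measured biliary markers 1 was higher.

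**Figure D2:**
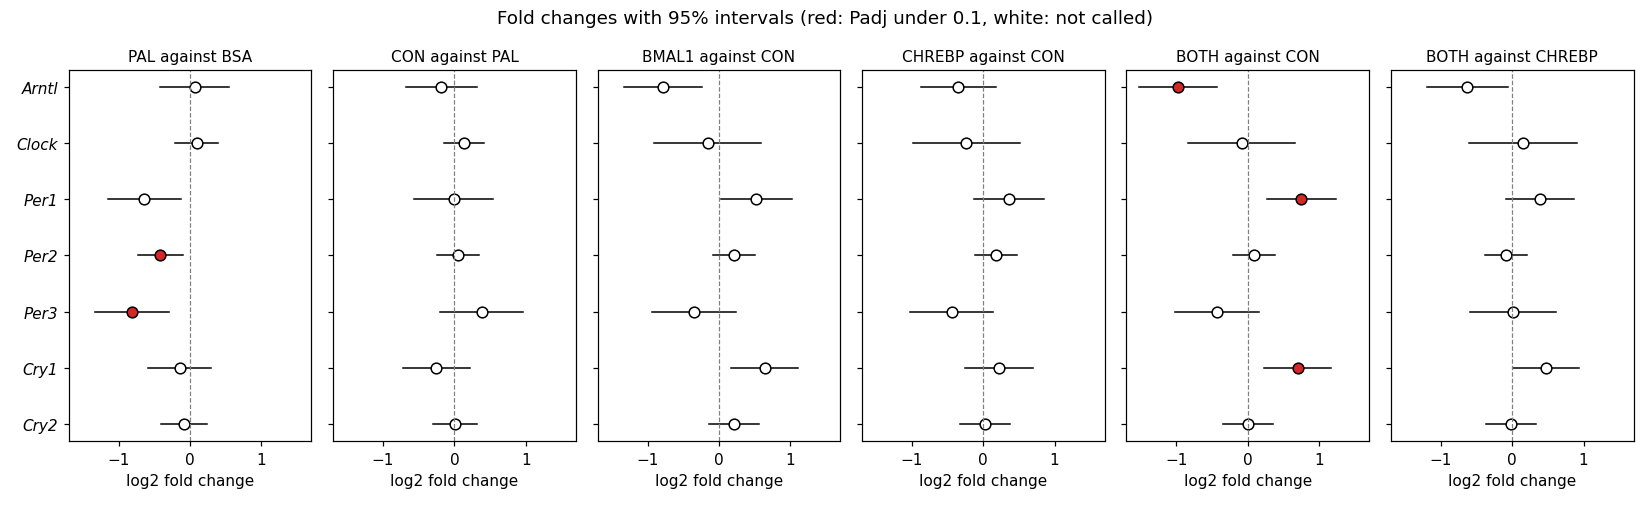
Log2 fold changes (points, horizontal axes) of the 7 detected core clock genes with 95% intervals (lines) in 6 comparisons, red where Padj was under 0.1. The periods lie to the left in PAL against BSA, and in BOTH against CON Arntl lies to the left and Per1 and Cry1 to the right. The 3 comparisons with CON share the same CON libraries.

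The esiRNA comparisons with CON addressed what Bmal1 and Chrebp each control. They share the 4 CON libraries, in which Per1 and Cry1 had their lowest group means, so like signs across them are not independent. In BMAL1 against CON, DESeq2 called 0 of 7 core clock genes and 0.49% of 13883 genes. DESeq2 gave no Padj to Arntl, Per1, Per3 and Cry1, so these 4 could not be called. Unadjusted p was under 0.05 for Arntl, Cry1 and Per1, and edgeR, which adjusts all genes, also called 0 of 7. Cry1, a strong repressor of the activator pair, had 49.4, 35.7, 35.4 and 49.9 normalized counts in CON and 57.0, 54.2, 63.2 and 87.7 in BMAL1. It was the 1 member of 7 whose groups did not overlap, as was the case for 5.43% of all genes tested, and it differed by 0.64 on the log2 scale (SE 0.24). Per1 differed by 0.53 (SE 0.25), with values of 66.5, 53.1, 35.4 and 85.0 in BMAL1 against 51.2, 41.1, 37.0 and 37.1 in CON. Replicate 3 of BMAL1 lay below all CON libraries. Without independent filtering the Padj was 0.483 for Cry1 and 0.734 for Per1. Of the 24 interferon response genes, 12 were lower in this comparison and none higher. Of 11 measured hepatocyte markers 1 was higher and 0 lower, and of 3 measured biliary markers 0 were called.

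In CHREBP against CON, 0 of 7 genes were called by DESeq2 or edgeR, 0 had an unadjusted DESeq2 p under 0.05, and 3.42% of genes were called. The differences of Arntl (-0.35, SE 0.27), Per1 (0.36, SE 0.25) and Cry1 (0.22, SE 0.24) had 95% intervals that included 0, and that of Per3 was -0.44 (-1.03 to 0.14). All 24 interferon response genes were higher in this comparison. Of 11 measured hepatocyte markers 0 were called, and of 3 measured biliary markers 1 was lower.

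With both esiRNAs, 3 of 7 core clock genes were called against CON and 9.73% of genes. The 3 include Arntl, the gene that Bmal1 esiRNA targets. Arntl fell, as given above, and Per1 and Cry1 rose. Per1 had 61.9, 99.0, 58.9 and 59.5 normalized counts in BOTH, and every BOTH library lay above every CON library. It was the 1 member of 7 without overlap, against 10.9% of all genes tested. It rose by 0.75 on the log2 scale (SE 0.25, Padj = 0.0362), to 1.68 times its CON level. Cry1 had 78.5, 80.4, 45.0 and 69.1 in BOTH, and replicate 3 lay within the CON range. It rose by 0.70 (SE 0.24, Padj = 0.0465), to 1.62 times its CON level. The other periods and Cry2 were not called, with differences of 0.09 for Per2 (95% interval -0.20 to 0.39), -0.43 for Per3 (-1.01 to 0.16) and 0.01 for Cry2 (-0.34 to 0.36). The median difference was 0.01 over the 7 genes and -0.01 over all genes. In the fit of 24 libraries, BOTH against PAL called 13.1% of genes. There Per1 was higher (0.74, Padj = 0.0397) and Arntl lower (-1.16, Padj = 0.00031), while Cry1 was not called (0.45, Padj = 0.210).

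The calls of Per1 and Cry1 against CON depended on single libraries, while both differences stayed positive in every leave-one-out fit. For Per1 the difference was 0.53 without BOTH replicate 2 (Padj = 0.238), 0.70 without CON replicate 3 (Padj = 0.125) and 0.70 without CON replicate 4 (Padj = 0.104). For Cry1 it was 0.62 without CON replicate 2 (Padj = 0.170) or 3 (Padj = 0.172), and 0.63 and 0.61 without BOTH replicates 1 and 2 (Padj = 0.130 and 0.159). Without BOTH replicate 4, the library that stood apart, all 3 genes were called, with Padj of 0.0413 for Arntl, 0.0219 for Per1 and 0.0655 for Cry1. In BOTH against CON all 24 interferon response genes were also higher, with a summed level of 7319 to 12824 CPM in BOTH against 184 to 1290 CPM in CON, 206 to 299 CPM in BMAL1 and 3892 to 8001 CPM in CHREBP. Of 11 measured hepatocyte markers 3 were lower (Trf, Serpina1a, Hnf4a) and 0 higher, with a summed level of 6592 to 7332 CPM in BOTH against 7287 to 7479 CPM in CON. Of 3 measured biliary markers Krt7 and Krt19 were lower, and the groups of all 3 did not overlap, with a sum of 492 to 596 CPM in BOTH against 676 to 709 CPM in CON. The part of these changes in the clock genes was not tested.

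**Figure D3:**
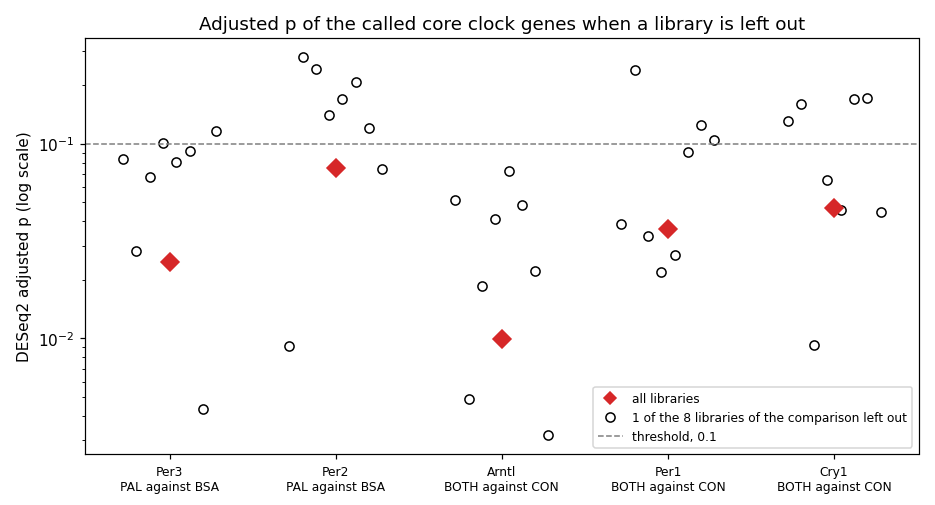
DESeq2 adjusted p (vertical axis, log scale) of the 5 called differences with all libraries (red diamonds) and with 1 of the 8 libraries of the comparison left out (open circles). Arntl stays below the threshold of 0.1 in all 8 leave-one-out fits, and the others cross it in 2 to 6 of 8.

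The comparisons among silenced groups addressed whether the 2 factors interact. Total esiRNA was 200 nM in CON and BOTH and 100 nM in BMAL1 and CHREBP. Adding Bmal1 esiRNA therefore came with a higher dose in BOTH against CHREBP and a lower one in BMAL1 against CON. Dose and silencing cannot be told apart in BOTH against either single-silencing group or in the interaction. In BOTH against CHREBP, where 0.994% of genes were called, DESeq2 and edgeR called 0 of 7. Unadjusted p was under 0.05 for Arntl and for Cry1, which differed by 0.47 (SE 0.24, DESeq2 Padj = 0.559). BOTH against BMAL1 called 10.4% of genes and CHREBP against BMAL1 3.82%, and in both DESeq2 and edgeR called 0 of 7, with no unadjusted p under 0.05. For the interaction, which sets the effect of silencing Bmal1 in CHREBP-silenced cells against its effect without Chrebp silencing, 1.47% of genes were called and again 0 of 7 by either tool, with none at an unadjusted p under 0.05. Its intervals were wide, at -0.63 to 0.94 for Arntl, -0.83 to 0.49 for Cry1 and -0.82 to 0.55 for Per1, and all 3 included 0. All 24 interferon response genes were called higher in BOTH against BMAL1 and in CHREBP against BMAL1. In the interaction 19 of them were called higher, and 0 were called in BOTH against CHREBP. The part of this response in the clock genes was not tested. The share of all genes tested whose groups did not overlap was 15.1% in PAL against BSA, 7.16% in CON against PAL, 8.58% in CHREBP against CON, 3.41% in BOTH against CHREBP, 11.3% in BOTH against BMAL1 and 8.53% in CHREBP against BMAL1. In these comparisons the groups of all 7 genes overlapped.

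Across groups, likelihood ratio tests asked which genes differed anywhere. Over the 4 esiRNA groups, Arntl (Padj = 0.0255) and Cry1 (Padj = 0.0857) were called, 2 of 7 against 9.92% of all genes. Here and over the 6 groups the count includes Arntl, the esiRNA target. The call of Cry1 was lost with edgeR (Padj = 0.141), without a count minimum (0.122) and in 9 of 16 leave-one-out fits (without CON replicates 2 or 3, BMAL1 replicates 3 or 4, CHREBP replicates 1, 2 or 3, or BOTH replicates 1 or 2, with Padj up to 0.266). That of Arntl was lost without CON replicate 1 (0.171) or 2 (0.114), and Per1 was called without BMAL1 replicate 3 (0.0489). Over all 6 groups, Arntl (Padj = 3.19e-05), Per3 (Padj = 0.0251), Per1 (Padj = 0.0439) and Cry1 (Padj = 0.0574) were called, 4 of 7 against 24.1% of all genes. Here the call of Arntl was kept in all 24 leave-one-out fits. Per3 was lost without BSA replicates 1 or 4 (Padj up to 0.133), Per1 without PAL replicates 2 or 4, CON replicate 3 or BOTH replicate 2 (up to 0.111), and Cry1 without CON replicates 2 or 3, BMAL1 replicate 4 or BOTH replicates 1 or 2 (up to 0.165). Per2 (Padj = 0.217), Cry2 (Padj = 0.900) and Clock (Padj = 0.994) were not called, and of these Per2 was called without BSA replicate 1 (Padj = 0.0244).

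The order of the groups differed between members. Mean Arntl was highest in PAL and BSA (50.5 ± 11.9 and 49.1 ± 7.31 normalized counts, SD, n = 4) and then ran through CON, CHREBP and BMAL1 to BOTH. Per1 ran from BOTH (69.8 ± 19.5) and BSA (65.8 ± 11.5) through BMAL1 and CHREBP to PAL (42.5 ± 17.3) and CON (41.6 ± 6.66). Per2 was highest in BSA (171 ± 33.4) and lowest in PAL (127 ± 13.7), with the silenced groups and CON between. Per3 was highest in BSA (56.5 ± 8.62), followed by CON (41.3 ± 13.2), and the other 4 groups lay between 30.7 and 33.0. Cry1 ran from BOTH (68.3 ± 16.3) and BMAL1 (65.5 ± 15.3) through BSA, PAL and CHREBP to CON (42.6 ± 8.12). The highest group mean of Clock and of Cry2 was 1.18 times the lowest, against 2.22 times for Arntl, 1.84 for Per3, 1.68 for Per1, 1.60 for Cry1 and 1.35 for Per2. No neighbours in any of these orders were called in the fit of 24 libraries, which called 0.648% to 20% of genes in the 15 pairs of groups, and the ranges of all neighbours overlapped.

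Cry2 was at 116 to 144 normalized counts in BSA and at 97.5 to 152 in the other groups, except for 85.8 in PAL replicate 1 and 69.1 in BOTH replicate 4. The other 3 BOTH libraries had 133, 133 and 141. Without replicate 4 the mean of BOTH was 136 ± 4.52 (SD, n = 3), against 119 ± 33.5 with it. For Clock it was 190 ± 37.4 without and 152 ± 82.0 with that library.

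**Figure D4:**
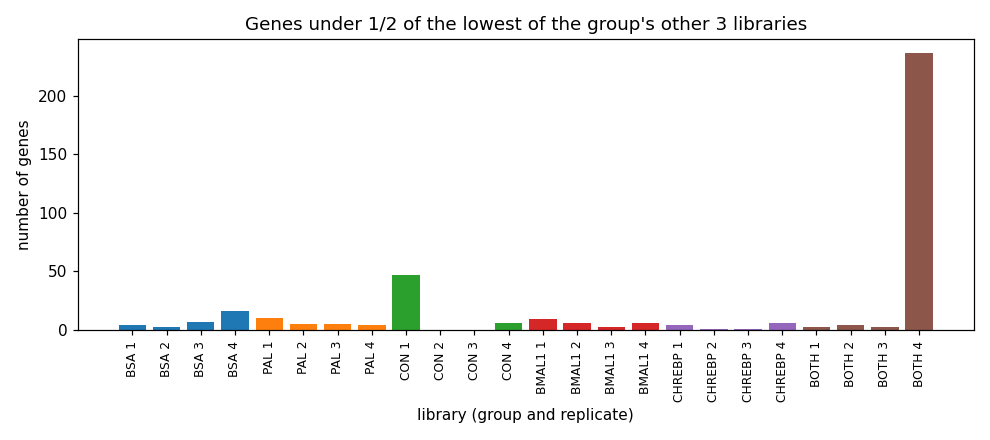
Number of genes (vertical axis, of 9380 that averaged at least 50 normalized counts) that lay below 1/2 of the lowest of the other 3 libraries of the group, for each of the 24 libraries (horizontal axis). BOTH replicate 4 has 237 such genes and the next highest library, CON replicate 1, has 47.

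Likeness of pattern was described by Pearson's r of log2(normalized count + 1) over the 24 libraries, among genes with a mean of at least 50, for the 5 members above that mean. The points share depth and plate position within a library. The genes most like Clock were Esf1 (r = 0.92), Cd2ap (r = 0.91) and Atrx (r = 0.90), and those most like Cry2 were Bod1l (r = 0.83), Atrx (r = 0.81) and Rabep1 (r = 0.81). Without BOTH replicate 4, a choice made after seeing the data, r fell to 0.70, 0.66 and 0.63 for the first set and to 0.64, 0.60 and 0.59 for the second. Likewise, r between Clock and Cry2 was 0.70 over 24 libraries and 0.32 over the 23 without it. Per1 was most like Il13ra1 (r = 0.72), Slc9a3r1 (r = 0.69) and Serhl (r = 0.69), Per2 most like Foxo6 (r = 0.74), Akap13 (r = 0.73) and Msrb1 (r = 0.70), and Cry1 most like Cd276 (r = 0.73), Tm2d3 (r = 0.72) and Nup62 (r = 0.63). For these 3 members the same 3 genes came first without that library.

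The rest of the clock pathway was read from 3 lists. Of 11 genes of the REV-ERB and ROR loop and clock output, 10 were measured in PAL against BSA, with 1 higher and 0 lower, where 14.3% of all genes were called. The one higher was Ciart, a repressor of the activator pair, at a mean of 6.08 counts. Of 13 relatives and partners of the activators, 12 were measured and 1 was higher, Timeless, a replication fork protein related to the fly clock gene, at 76.5 ± 12.0 and 112 ± 19.4 (0.55, Padj = 0.0282). Of 17 kinases and ubiquitin pathway genes that act on period and cryptochrome proteins, 2 were higher, Usp7, a deubiquitinase that stabilizes cryptochromes (0.35, Padj = 0.0222), and Cul1, a ubiquitin ligase scaffold (0.20, Padj = 0.0233). These counts, 1 of 10, 1 of 12 and 2 of 17, were not above the share of all genes called. The median differences of the 3 lists were -0.06, 0.11 and -0.01 on the log2 scale.

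In CON against PAL, where 2.51% of all genes were called, 1 gene of the 3 lists was called, Csnk1a1, a casein kinase (log2 difference -0.21, Padj = 0.0214). In BOTH against CON (9.73% of all genes called) 3 genes of the lists were called. Nfil3, a repressor at D-box elements, was higher at 352 ± 22.0 against 244 ± 11.3 (0.52, Padj = 2.24e-05), as was Fbxw11, a ubiquitin ligase subunit that acts on period proteins (0.31, Padj = 0.00693), and Usp2 was lower at a mean of 4.24 counts. Nfil3 was also higher in BOTH against CHREBP (0.36, Padj = 0.0552) and against BMAL1 (0.59, Padj = 1.16e-06), and Fbxw11 against BMAL1 (0.30, Padj = 0.0121). No gene of these lists was called by DESeq2 in BMAL1 against CON, CHREBP against CON, CHREBP against BMAL1 or the interaction. An unadjusted p under 0.05 was found for 0 of their genes in BMAL1 against CON, for 1 kinase or ligase gene in CHREBP against CON, for 1 gene of the loop and output list in CHREBP against BMAL1, and in the interaction for 1 gene of that list and 3 kinase or ligase genes. Over all genes tested, the share with such a p was 6.22%, 10.5%, 10.9% and 7.77% in these comparisons.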

How the data were processed

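Gene expression was measured by BRB-seq in 24 AML-12 libraries. The authors aligned the reads to mm10 with STAR, and the submitters' processing notes also name HTSeq, featureCounts and DESeq2. Versions, strand use and the handling of molecular identifiers are not given in the sources used here. The deposited values were raw counts per gene, without normalization or pooling. The summary lines for ambiguous and multiply aligned reads were 0, and all 5 summary lines (24.9% to 28.0% of reads not aligned, 5.11% to 6.47% without a feature) were left out.

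Groups came from the labels. As in the study's methods, DESeq2 was used (version 1.42.0, R 4.3.3). A gene was tested if its counts in the libraries of a fit summed to 25 or more, and genes with Padj under 0.1 were called. PAL with BSA and CON with PAL were fitted as 8 libraries each, the 4 esiRNA groups as 16 and all groups as 24. Normalized counts used size factors of the 24 libraries. Arntl was also tested by exact permutation of log2(normalized count + 1). Alternatives were edgeR 4.0.16 (quasi-likelihood), TMM scaling, other count minimums, no independent filtering, a replicate block, other sets of libraries and leaving out each library. A floor of 3 counts is 0.267 to 0.556 CPM per library, which covers counting error only. The fits were tested on simulated data.

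The members, gene lists and tests were chosen with earlier results of these data known. Text names were the 8 members, other clock genes called with a mean of at least 50 (at most 5 per comparison), and the 3 genes most like each member with a mean of at least 50. Ciart and Usp2, below that mean, were named after their values were seen. One clock pathway gene was left out of the lists and is not reported here. Gene coordinates are those of GENCODE M21 (GRCm38).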

Additional observations from a re-analysis of the deposited data

Results flagged for a closer look

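In 3 of 42 groups of 4 values (7 genes in 6 groups), 1 library lay far from the other 3 by Dixon's test at its 95% critical value, and chance flags about 1 in 20 groups. Per1 in BOTH replicate 2 had 99.0 normalized counts against 58.9 to 61.9 in the other libraries of that group, and it is also the library whose removal took the Padj of Per1 in BOTH against CON to 0.238. Per3 in PAL replicate 3 had 48.1 against 26.4 to 27.2. Without that library the fall of Per3 in PAL against BSA went from 0.81 to 1.07 on the log2 scale. Cry2 in BOTH replicate 4 had 69.1 against 133 to 141, in the library in which 237 genes lay below 1/2 of the lowest of the other 3.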

How the results depend on the processing

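The count of core clock genes called was 0 under all alternatives run in CON against PAL, BMAL1 against CON, CHREBP against CON, BOTH against CHREBP, BOTH against BMAL1, CHREBP against BMAL1 and the interaction. Leaving out 1 library gave 0 to 2 called genes in PAL against BSA, 1 to 3 in BOTH against CON, 0 to 2 over the 4 esiRNA groups and 2 to 4 over the 6 groups. Over the 4 esiRNA groups, edgeR called 1 (Arntl), as did DESeq2 without a count minimum (1). In PAL against BSA, Per1 was also called by edgeR (Padj = 0.0849), in the fit of all 24 libraries (Padj = 0.0958) and with a minimum summed count of 10 per library (Padj = 0.0930). The single-gene difference of Arntl ranged from -0.91 to -0.60 in BMAL1 against CON, -1.12 to -0.81 in BOTH against CON and -0.79 to -0.51 in BOTH against CHREBP when 1 library was left out, with an exact permutation p of 0.0286 to 0.0857, 0.0286 to 0.0857 and 0.0286 to 0.114. The cause was not tested.

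Replicate numbers did not pair the libraries: deviations of same-numbered libraries had a mean correlation of 0.03 in PAL and BSA, 0.09 in CON and PAL and 0.02 in the esiRNA groups. With the replicate block, 1 core clock gene was called in PAL against BSA (Per3, Padj = 0.0949, with Per2 at 0.180), and the count did not change in the other comparisons. The exact p of Arntl under the replicate block was 0.25, 0.125 and 0.125, where 0.125 is the smallest possible. Genes called went from 1828 to 1188 (PAL against BSA), 325 to 186 (CON against PAL) and 68 to 22 (BMAL1 against CON) with the block. In 3 cases a small difference changed sign with it: Per1 in CON against PAL (0.026), Cry2 in BOTH against CON (-0.0044) and Clock in BOTH against BMAL1 (-0.068).

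Counts over all genes also moved by over 1.5 times for BMAL1 against CON (68) with edgeR (14), without independent filtering (33) and in a fit of only those groups (144), for BOTH against CHREBP (138) with edgeR (53) and only those groups (80), and for the interaction (204) with edgeR (122). Leaving out 1 library gave 180 to 343 in CON against PAL, 16 to 107 in BMAL1 against CON, 56 to 222 in BOTH against CHREBP, 350 to 650 in CHREBP against BMAL1 and 104 to 291 for the interaction.

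Uncalled differences near 0 changed sign when 1 library was left out, none of them called in either fit. In PAL against BSA the range was -0.11 to 0.17 for Arntl and -0.16 to 0.023 for Cry2. In CON against PAL it was -0.18 to 0.29 for Per1, -0.11 to 0.073 for Cry2 and -0.026 to 0.12 for Per2. Against CON it was -0.053 to 0.11 for Cry2 in CHREBP, and in BOTH -0.079 to 0.20 for Cry2 and -0.33 to 0.24 for Clock. In BOTH against CHREBP it was -0.11 to 0.18 for Cry2, -0.17 to 0.015 for Per2, -0.095 to 0.14 for Per3 and -0.094 to 0.47 for Clock. In BOTH against BMAL1 it was -0.035 to 0.23 for Cry1, -0.32 to 0.067 for Per3 and -0.17 to 0.40 for Clock. In CHREBP against BMAL1 it was -0.34 to 0.054 for Per3, -0.36 to 0.067 for Per1, -0.14 to 0.046 for Per2 and -0.26 to 0.025 for Clock. For the interaction it was -0.32 to 0.011 for Cry1, -0.36 to 0.10 for Per1 and -0.044 to 0.29 for Arntl. With 15 to 85 counts of Arntl and 16 to 67 of Per3 per library, the SD between libraries was 0.92 to 1.87 times (Arntl) and 0.80 to 2.21 times (Per3) that of counting error alone in the 6 groups.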

Other observations

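The ratio of Per3 and Nr1d2 to Arntl, computed as log2(Per3 + 1) + log2(Nr1d2 + 1) - log2(Arntl + 1) from normalized counts, combines genes that cycle in opposite phase in liver. The lowest mean was that of PAL, 6.24 ± 0.77, and the highest that of BSA, 7.17 ± 0.30 (SD, n = 4). BOTH followed at 7.05 ± 0.29, BMAL1 at 6.81 ± 0.66, CHREBP at 6.71 ± 0.25 and CON at 6.69 ± 0.40. It was not tested, and it includes the gene that the esiRNA targets. PAL replicate 3 had 7.34, above 3 of 4 BSA libraries, and the other PAL libraries had 5.60 to 6.19. Deviations from group means were correlated for all 21 pairs of the 7 genes, as a description of libraries that share depth and plate position. The highest value was that of Clock and Cry2 (r = 0.76, and 0.31 without BOTH replicate 4), followed by Per1 and Per3 (0.68, and 0.71 without that library) and Arntl and Per2 (0.62 and 0.59). All remaining pairs lay between -0.10 and 0.30 over the 24 libraries.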
